A study of Mus musculus with 8 samples.

Results

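The genes of the interleukins and of their receptors were examined in bulk RNA-seq of kidneys, with 4 control libraries and 4 libraries of mice with cisplatin-induced acute kidney injury. Members were the rows of the gene count table with a value for each of the 8 named libraries, a gene name that begins with Il and a digit, and the protein-coding biotype. There were 45 such genes among 35880 usable rows. A further 37 protein-coding interleukin genes stood in rows with 10 values instead of 8, which could not be assigned to libraries and were not used. They include Il6, Il6st, Il10, Il1a, Il1r1, Il1rn, Il33, Il18bp, Il11ra1, Il10rb and Il17c, so several ligands described here are shown without their receptor, and the reverse.

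All mice were wild type, and the study's methods give male C57/BL6J animals. The comparison asks how the inflammatory response of the kidney differs in acute injury by cisplatin. Controls received saline, and the other group received cisplatin, an anticancer drug toxic to kidney tubules, at 23 mg/kg into the peritoneum. Kidneys were collected 72 h after the injection, and the labels call the libraries control 1, 2, 3 and 5 and cisplatin 1, 3, 4 and 6. RNA came from whole kidney tissue, so a value is an average over tubules, vessels and infiltrating cells, and fewer cells of a type cannot be told apart from less RNA per cell. Each library stands for 1 kidney sample as far as the labels say, and the p-values measure the spread between these samples.

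Interleukins are secreted proteins through which tissue cells and leukocytes signal to each other, and each acts through a receptor that is usually made of a ligand-binding chain and a shared signalling chain. The IL-1 family signals through Toll/IL-1 domains and the adaptor MyD88, the IL-17 family through the adaptor Act1, and most of the others through Janus kinases and STAT transcription factors. Decoy receptors bind the ligand without signalling. In the injured kidney, interleukins are known both as signals that draw in leukocytes and as signals to the tubule itself.

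Over the usable rows the libraries held between 10953338 and 16701599 counts, which is part of each library's depth. Levels are given as CPM, counts relative to a library total that was corrected with TMM, a scaling that assumes most genes do not differ. The level of 3 counts, taken as the smallest measurable, was 0.136 to 0.266 CPM on this scale, and it covers counting error only. All 9 markers of the proximal tubule were detected and fell, from a summed 26459 to 34952 CPM in the controls to 1032 to 2505 CPM after cisplatin, and the whole expression profile separated the groups on the first principal component (73.55% of the variance). The second component (15.96%) separated control 5, cisplatin 4 and cisplatin 6 from the other 5 libraries, and these are named second library set and first library set below. Cisplatin 1 and cisplatin 3 had at most 3 counts of the Y-linked genes Kdm5d and Eif2s3y, against at least 274 in every other library, which goes against male animals for these 2 libraries. Both belong to the first set, so that within the cisplatin group the 2 differences cannot be told apart.

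Of the 45 genes, 28 passed the expression filter. Of these 28, 12 were up-regulated and 5 were down-regulated by cisplatin, where a call needed an adjusted p under 0.05 in edgeR's quasi-likelihood test and a change of at least 1 in either direction on the log2 scale. The background was large, since 34.9% of all 9141 genes tested were called, 19.2% as higher and 15.7% as lower after cisplatin. Among the 28 genes, 42.9% were called higher and 17.9% lower. In 13 of the 28 all cisplatin libraries lay above all controls, and in 5 all lay below, against 23.7% and 22.5% of all genes tested (46.3% in either direction). Il1f6, Il24, Il11, Il1r2, Il1f9 and Il23a entered the test mainly through their counts after cisplatin, so the first share is a description of the genes that passed and not of the family. Il22ra1 entered it mainly through its counts in the controls, so the share called lower also describes the genes that passed. With a floor of 10 counts for each of the 8 libraries, 20 of the genes were left, with 6 up-regulated and 3 down-regulated, against 14.7% and 14.2% of all genes. Before any threshold on the fold, 14 of the 28 were higher and 5 lower at the same adjusted p, against 26.4% and 22.6% of all genes. Without cisplatin 1 and 3, 12 genes were called higher and 5 lower, with 11 and 5 of them among those above, against 21.4% and 20.5% of all genes.

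Ligands and signalling receptors were counted apart. Of 13 ligands tested, 7 were up-regulated and 2 down-regulated, with a median log2 change of 1.46. Of 14 signalling receptor chains tested, 4 were up-regulated and 3 down-regulated, with a median of 0.61. Over all genes tested, 19.2% were up-regulated and 15.7% down-regulated, and the median was 0.08. Of the ligands called higher, Il1f6, Il24, Il11, Il1f9 and Il23a entered the test mainly through their counts after cisplatin. The share of ligands called higher therefore describes the genes that passed the filter. Of the receptors called lower, Il22ra1 entered mainly through its control counts, 32 to 94 per library against 6 to 21 after cisplatin. The share of receptors called lower has the same limit. The difference between ligands and receptors was not tested, and the ligand median depended on the filter, since it was -0.015 under that floor of 10 counts. The ligands with the widest changes, Il1f6, Il24, Il11 and Il1f9, had between 0 and 6 counts in each control.

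**Figure D1:**
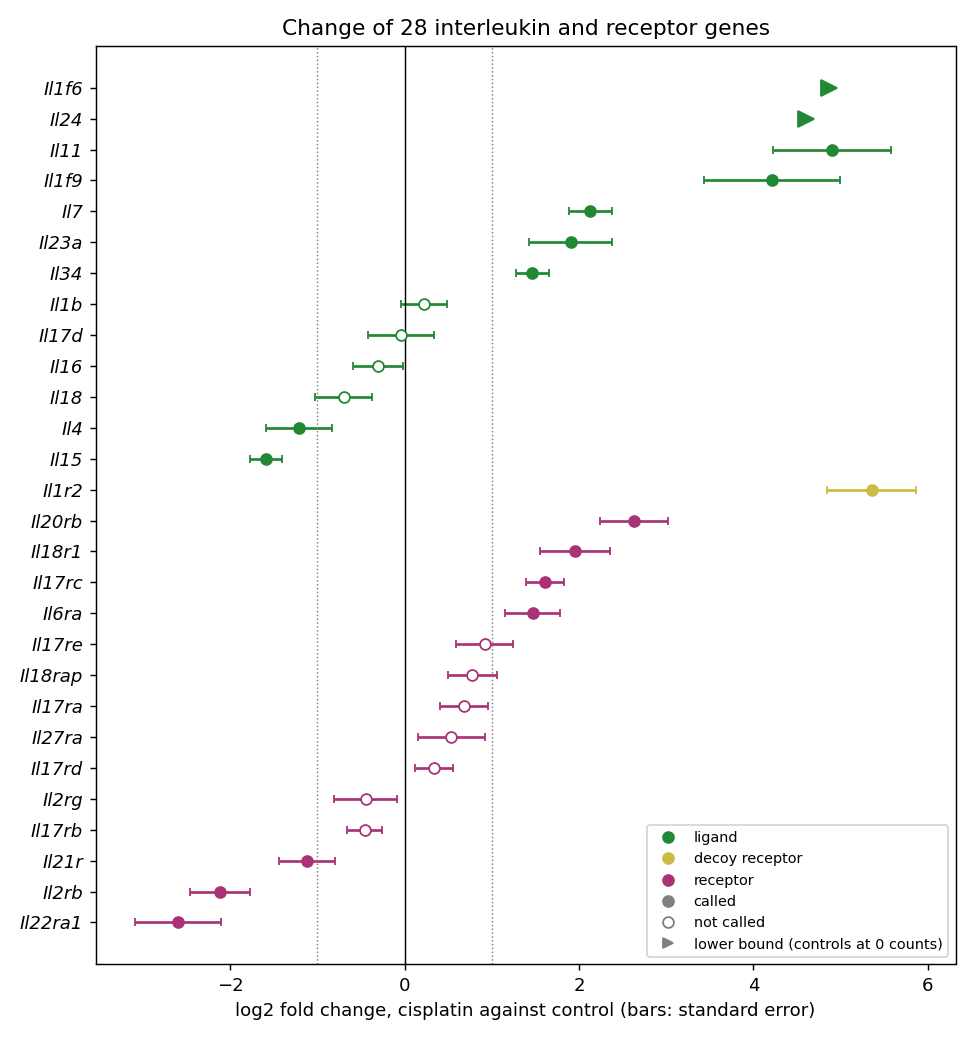
Log2 fold change, cisplatin against control, of the 28 interleukin and receptor genes that passed the expression filter, with ligands in green, the decoy receptor in yellow and signalling receptors in purple. Bars are standard errors, filled points passed both thresholds, dotted lines mark a log2 change of -1 and 1, and triangles are lower bounds for the 2 ligands with 0 counts in every control. Il1r2 and Il11 stand furthest to the right among genes with a fitted value, and Il22ra1 furthest to the left.

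The promoters of the genes that were near 0 in the controls and of the 2 chains of an IL-24 receptor are shown, because these members moved furthest among those with a promoter entry in RefSeq (GRCm38.p6). Of the 28 genes tested, 19 had an entry. Each sequence is the 250 bases before the transcription start, 5′ to 3′ on the strand of the gene. Capitals mark a match, on either strand, to AP-1 (TGANTCA), STAT (TTCNNNGAA), C/EBP (TTGCNNAA) or the NF-kappa B consensus. The entry of Il1r2 belongs to a start site 12014 bases inside the gene as the count table places it, and that of Il20rb to one 315 bases inside.
Il11, chr7:4782858-4783107, minus strand: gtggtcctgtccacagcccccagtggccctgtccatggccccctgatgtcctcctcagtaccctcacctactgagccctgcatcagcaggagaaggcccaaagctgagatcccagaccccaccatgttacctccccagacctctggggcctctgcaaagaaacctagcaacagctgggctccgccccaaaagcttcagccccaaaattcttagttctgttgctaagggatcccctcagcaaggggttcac
Il1f9, chr2:24186226-24186475, plus strand: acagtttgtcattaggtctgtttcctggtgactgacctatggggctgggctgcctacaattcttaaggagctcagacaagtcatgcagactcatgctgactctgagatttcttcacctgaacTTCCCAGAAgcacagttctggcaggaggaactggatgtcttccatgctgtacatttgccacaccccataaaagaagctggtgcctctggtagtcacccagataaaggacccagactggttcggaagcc
Il1r2, chr1:40085843-40086092, plus strand: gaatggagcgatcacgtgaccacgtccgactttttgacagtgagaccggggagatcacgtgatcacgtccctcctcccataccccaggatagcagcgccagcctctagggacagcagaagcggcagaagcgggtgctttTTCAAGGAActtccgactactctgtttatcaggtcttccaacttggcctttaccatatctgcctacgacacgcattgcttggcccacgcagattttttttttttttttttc
Il20rb, chr9:100486474-100486723, minus strand: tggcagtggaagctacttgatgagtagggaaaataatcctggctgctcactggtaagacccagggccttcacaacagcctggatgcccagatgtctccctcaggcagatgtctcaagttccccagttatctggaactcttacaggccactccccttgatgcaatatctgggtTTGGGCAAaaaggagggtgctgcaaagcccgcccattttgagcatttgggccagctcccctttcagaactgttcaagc
Il22ra1, chr4:135727909-135728158, plus strand: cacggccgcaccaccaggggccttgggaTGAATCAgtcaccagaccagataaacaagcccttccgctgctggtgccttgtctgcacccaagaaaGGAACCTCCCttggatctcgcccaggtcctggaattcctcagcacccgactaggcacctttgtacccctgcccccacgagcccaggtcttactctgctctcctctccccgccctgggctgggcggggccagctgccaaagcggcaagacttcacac

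A STAT match began 111 bases before the start in Il1r2 and 128 bases before it in Il1f9, and a C/EBP match 78 bases before it in Il20rb. Il22ra1, the gene of this group that fell, held an AP-1 match at 222 bases and an NF-kappa B match at 156 bases. Il11 had no match to the 4 motifs in these 250 bases. Of 32851 promoter windows of the same length, 6.75% held the AP-1 motif, 7.25% the NF-kappa B motif, 7.02% the STAT motif and 9.56% the C/EBP motif. Over the 7 up-regulated genes with an entry, 2 held a STAT match and 1 a C/EBP match.

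Within the IL-1 family, both IL-36 ligands with enough counts and the decoy receptor rose from near 0, whereas the genes of IL-1β and IL-18 did not pass the test. Il1f6 (ENSMUSG00000026984, chr2:24215418-24225702) encodes IL-36α, an epithelial cytokine. It had 0 counts in all 4 controls and 10.9, 9.79, 3.29 and 6.98 CPM in cisplatin 1, 3, 4 and 6. The lowest cisplatin library was cisplatin 4, and all 4 were above every control. The mean of 7.73 ± 3.38 CPM (SD, n = 4) was at least 29.1-fold higher than the level of 3 counts in a control (adjusted p = 0.000178).

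Il1f9 (ENSMUSG00000044103, chr2:24186476-24193568), the gene of IL-36γ, lies on the same stretch of chromosome 2. It had 0.0886, 0, 0.0758 and 0.472 CPM in control 1, 2, 3 and 5 and 1.73, 1.54, 4.98 and 4.36 CPM in cisplatin 1, 3, 4 and 6. The groups did not overlap, and the 2 cisplatin libraries of the second set were the higher ones. This corresponded to a log2 change of 4.21 (± 0.78 SE, adjusted p = 0.00164). Without control 5, which held 6 of the 8 control counts, it was 5.63.

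Il1b, the gene of IL-1β, had 3.19, 3.75, 3.72 and 2.83 CPM in the controls and 4.46, 2.86, 4.32 and 4.12 CPM after cisplatin. The groups overlapped, and the log2 change was 0.22 (± 0.26 SE, adjusted p = 0.504). Within the first library set it was -0.013, so no direction can be given. The antisense gene Il1bos overlaps Il1b, and whether reads were counted by strand is not given in the sources used here.

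Il18 encodes IL-18, which is made as a precursor by tubule cells and macrophages. It had 3.10, 3.03, 3.11 and 2.20 CPM in the controls and 1.41, 1.59, 2.78 and 1.27 CPM after cisplatin. Cisplatin 4 lay among the controls and the other cisplatin libraries below them, and the log2 change was -0.70 (± 0.33 SE, adjusted p = 0.103). Within the first library set it was -1.09 (adjusted p = 0.0118), which passed both thresholds, and the cisplatin libraries of that set are the ones with at most 3 Y-linked counts. The study also measured Il18 mRNA by quantitative PCR in control, cisplatin and NMN-treated cisplatin kidneys. It reports that NMN, a precursor of NAD+, lowered the expression of inflammatory cytokine genes. Those PCR values are not compared here. The study's primers for Il18 are shown because they mark the stretch of the gene that PCR covers. In GENCODE M21 transcripts (GRCm38) their product is 169 bases and lies in coding sequence.
forward, chr9:50575291-50575312: gactcttgcgtcaacttcaagg
reverse, chr9:50577839-50577859: caggctgtcttttgtcaacga

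In transcript ENSMUST00000213916.1 the forward primer lies in exon 3 and the reverse primer in exon 5. Bco2 and Tex12 overlap Il18 on the opposite strand. The remaining IL-1 family ligands with usable rows, Il1f8 and Il1f10, had at most 3 counts in any library, and the receptor-like gene Il1rapl2 had 0.

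Il1r2 (ENSMUSG00000026073, chr1:40074079-40125231) encodes the type 2 IL-1 receptor, a decoy that binds IL-1 and lacks the signalling domain. It had 0.177, 0.160, 0 and 0.236 CPM in control 1, 2, 3 and 5, which is at most 3 counts per library, and 4.64, 6.71, 6.37 and 6.82 CPM in cisplatin 1, 3, 4 and 6. All 4 cisplatin libraries were above every control and close to one another. The ratio of the summed counts was 42.5 (95% exact binomial interval 20.4 to 106, counting error only), and the fitted log2 change was 5.35 (± 0.51 SE, adjusted p = 3.79e-05). An antisense gene and an unclassified transcript overlap Il1r2.

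The chains of the IL-18 receptor lie next to each other on chromosome 1, and both were higher in every cisplatin library than in any control. This held for 23.7% of all genes tested. Il18r1 (ENSMUSG00000026070, chr1:40465552-40500854), the ligand-binding chain, had 2.21, 1.68, 0.986 and 1.18 CPM in the controls and 6.004, 9.24, 4.69 and 3.41 CPM after cisplatin. It was up-regulated, with a log2 change of 1.95 (± 0.40 SE, adjusted p = 0.00289). Il18rap, the accessory chain, had 2.13, 1.91, 1.82 and 1.42 CPM in the controls and 3.50, 2.69, 3.73 and 2.54 CPM after cisplatin. Its log2 change of 0.78 (± 0.28 SE, adjusted p = 0.0416) did not reach the threshold of 1.

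Il1r2 and Il18rap are also expressed by neutrophils. Of 13 neutrophil markers, 8 had usable rows, 6 were tested and 4 were up-regulated, against 19.2% of all genes tested. The summed level of the 8 was 4.87 to 7.94 CPM in the controls and 15.6 to 29.3 CPM after cisplatin. Mpo was at 0 counts in every library. The part of these cells in the change of Il1r2, Il18r1 or Il18rap was not tested.

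**Figure D2:**
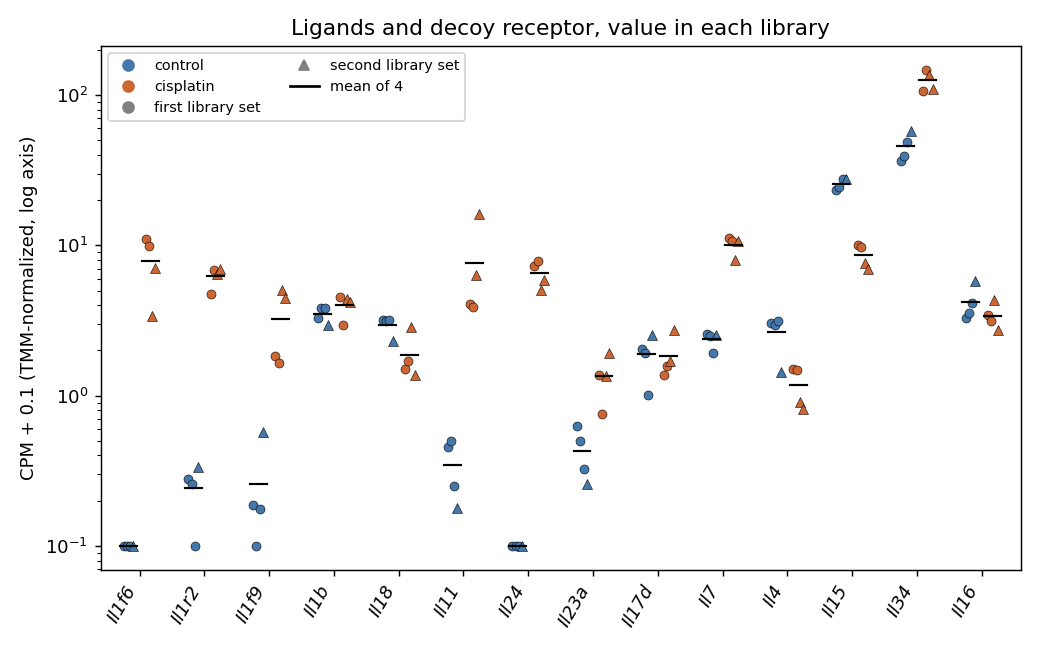
TMM-normalized CPM + 0.1, on a log axis, of the 13 ligands and the decoy receptor Il1r2 in each of 4 control (blue) and 4 cisplatin (orange) kidneys, ordered by family. Circles are the first library set, triangles the second, and lines the mean of 4; Il1f6, Il24, Il11, Il1f9 and Il1r2 rise from the floor of the axis, and Il15 and Il4 are lower after cisplatin.

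In the IL-6 family, the ligand Il11 and the receptor chain Il6ra were up-regulated. Il11 (ENSMUSG00000004371, chr7:4772373-4782857) encodes IL-11, which signals through the shared chain gp130 and is known from fibrosis. It had 0.354, 0.399, 0.152 and 0.0786 CPM in control 1, 2, 3 and 5 and 3.96, 3.79, 6.30 and 16.1 CPM in cisplatin 1, 3, 4 and 6. The groups did not overlap, and cisplatin 6 was far above the other cisplatin libraries. On the log2 scale the change was 4.90 (± 0.67 SE, adjusted p = 0.000304), and it was 4.22 without cisplatin 6 and 3.61 within the first library set, up-regulated in both.

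Il6ra (ENSMUSG00000027947, chr3:89864059-89913196) encodes the chain that binds IL-6. It had 10.9, 12.3, 11.9 and 7.31 CPM in control 1, 2, 3 and 5 and 40.9, 38.2, 17.6 and 20.5 CPM in cisplatin 1, 3, 4 and 6. Every cisplatin library was above every control, but the first library set stood clearly above the second. edgeR gave a log2 change of 1.47 (± 0.31 SE, adjusted p = 0.00373). Without cisplatin 1 and 3 it was 0.85 (adjusted p = 0.0209), below the threshold of 1. The ratio of means was 3.38 in the first set and 2.60 in the second, which has control 5 as its only control. An antisense gene overlaps Il6ra.

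Il27ra, which encodes the chain that binds IL-27, had 1.51, 1.83, 1.97 and 1.18 CPM in the controls and 3.14, 2.91, 1.02 and 2.30 CPM after cisplatin. Cisplatin 4 lay below all controls, and the log2 change was 0.54 (± 0.38 SE, adjusted p = 0.271). Palm3 overlaps Il27ra on the opposite strand. Il31 had 0 counts in every library, a count that allows a level up to the 0.136 to 0.266 CPM of 3 counts.

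The IL-10 family showed the ligand Il24 and its receptor chain Il20rb rising while another chain, Il22ra1, fell. Il24 (ENSMUSG00000026420, chr1:130882074-130887454) encodes IL-24, which acts on epithelial cells through a receptor of Il20rb with either Il20ra or Il22ra1. It had 0 counts in every control and 7.19, 7.81, 4.98 and 5.79 CPM in cisplatin 1, 3, 4 and 6. The 4 cisplatin libraries were close to each other, and their mean of 6.44 ± 1.29 CPM (SD, n = 4) was at least 24.2-fold higher than 3 counts in a control (adjusted p = 4.43e-05).

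Il20rb (ENSMUSG00000044244, chr9:100457719-100486788) had 3.01, 1.75, 2.35 and 0.786 CPM in control 1, 2, 3 and 5 and 10.5, 9.51, 16.3 and 12.8 CPM in cisplatin 1, 3, 4 and 6. The lowest cisplatin library was above the highest control. Its log2 fold change came to 2.63 (± 0.39 SE, adjusted p = 0.000477), a 6.20-fold rise, and it was 2.02 within the first library set.

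Il22ra1 (ENSMUSG00000037157, chr4:135728172-135752140), which also forms the IL-22 receptor, had 4.16, 2.55, 4.40 and 7.39 CPM in the controls and 0.318, 1.15, 1.10 and 0.476 CPM after cisplatin. All cisplatin libraries were below all controls. The fitted log2 change was -2.60 (± 0.50 SE, adjusted p = 0.00199), which is 6.06-fold lower after cisplatin. The other partner chain, Il20ra, had at most 1 count in any library. Among the other ligands of the family, Il19 had at most 3 counts, Il20 at most 1 and Il22 none, and all of them were below or at the smallest measurable level.

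Il23a was the gene of the IL-12 family that passed the filter. Il23a (ENSMUSG00000025383, chr10:128296139-128298752) encodes the p19 subunit of IL-23, which needs the product of Il12b, in an unused row, to be secreted as IL-23. It had 0.531, 0.399, 0.228 and 0.157 CPM in the controls and 1.27, 0.660, 1.24 and 1.82 CPM after cisplatin. The lowest cisplatin library, cisplatin 3, was just above the highest control. This corresponded to a log2 change of 1.90 (± 0.48 SE, adjusted p = 0.00828), but within the first library set it was 1.28 (adjusted p = 0.0711) and did not pass. Il12rb1, the shared receptor chain of IL-12 and IL-23, had 5 to 20 counts per library and failed the filter, and Il12a had at most 2 counts.

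In the IL-17 family, 1 of the 5 receptor chains was up-regulated, a share close to the 19.2% of all genes, while the ligands with usable rows were low or absent. Il17a, the gene of IL-17A, had 0 counts in all 8 libraries, and Il17b had at most 3. Il17d had 1.95, 1.83, 0.910 and 2.44 CPM in the controls and 1.27, 1.48, 1.61 and 2.62 CPM after cisplatin. These groups overlapped almost wholly, and the log2 change was -0.04 (± 0.38 SE, adjusted p = 0.941).

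Il17rc (ENSMUSG00000030281, chr6:113471427-113483140) encodes the chain that pairs with Il17ra to bind IL-17A and IL-17F. It had 21.8, 21.9, 21.8 and 38.4 CPM in control 1, 2, 3 and 5 and 86.7, 86.1, 77.5 and 68.3 CPM in cisplatin 1, 3, 4 and 6. Control 5 was well above the other controls and still below every cisplatin library. On the log2 scale the change was 1.61 (± 0.22 SE, adjusted p = 0.00027), a 3.06-fold rise. The ratio of means was 3.95 in the first library set and 1.90 in the second, where control 5 is the only control.

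The neighbouring gene Il17re, which encodes the chain for IL-17C and begins upstream of Il17rc on the same strand, did not pass. It had 27.6, 29.1, 33.9 and 24.6 CPM in the controls and 77.5, 76.4, 33.7 and 29.8 CPM in cisplatin 1, 3, 4 and 6. Cisplatin 1 and 3 were far above all controls, whereas cisplatin 4 and 6 lay among them. edgeR gave a log2 change of 0.92 (± 0.32 SE, adjusted p = 0.0388), below the threshold of 1. Within the first library set it was 1.29 (adjusted p = 6.80e-05), and without cisplatin 1 and 3 it was 0.15 (adjusted p = 0.50).

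Il17ra, the signalling chain common to the family, split the other way. It had 57.0, 53.9, 62.3 and 73.4 CPM in the controls and 67.8, 61.3, 141 and 125 CPM in cisplatin 1, 3, 4 and 6. Cisplatin 4 and 6 were above all controls, and cisplatin 1 and 3 lay among them. Its log2 fold change came to 0.68 (± 0.27 SE, adjusted p = 0.0654), and without cisplatin 1 and 3 it was 1.12 (adjusted p = 0.000574), past both thresholds. In Il6ra, Il17re and Il17ra the split of the cisplatin libraries followed both the library set and the low Y-linked counts, which cannot be told apart.

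Il17rd had 16.8, 12.3, 16.4 and 13.9 CPM in the controls and 18.6, 25.0, 17.6 and 13.6 CPM after cisplatin, with overlapping groups and a log2 change of 0.33 (± 0.22 SE, adjusted p = 0.233). Il17rb, the chain for IL-25, had 16.6, 18.4, 19.0 and 17.9 CPM in the controls and 12.3, 15.5, 15.4 and 9.04 CPM after cisplatin. Its groups did not overlap, but the log2 change of -0.46 (± 0.20 SE, adjusted p = 0.0895) did not pass. Scaling by total library size turned it to 0.11. Actr8 overlaps Il17rb on the opposite strand.

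**Figure D3:**
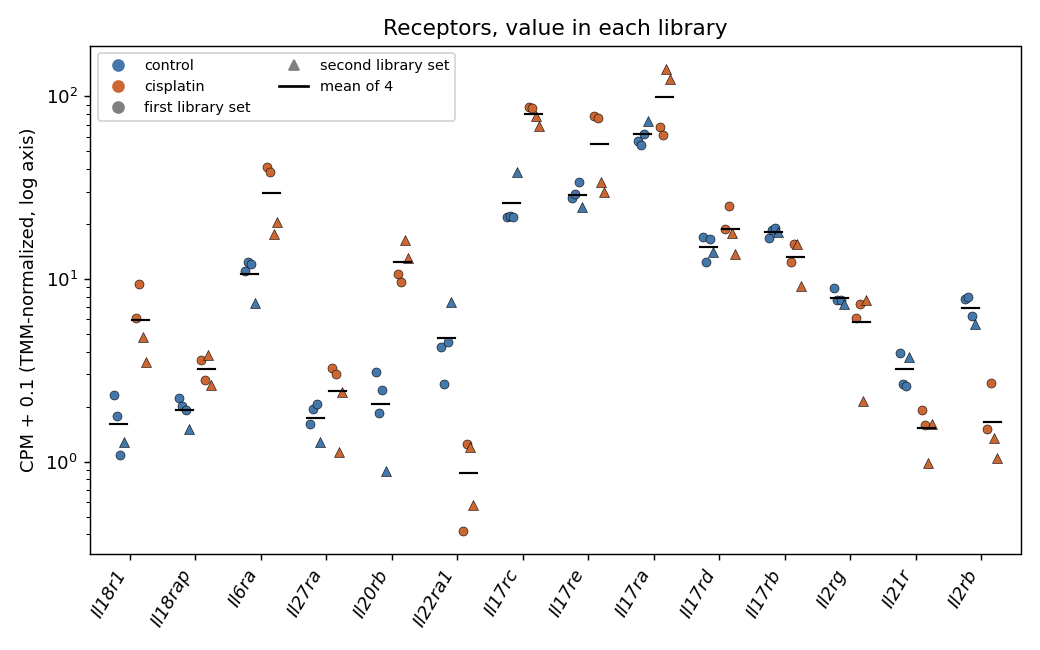
TMM-normalized CPM + 0.1, on a log axis, of the 14 signalling receptor chains in each of 4 control (blue) and 4 cisplatin (orange) kidneys, ordered by family. Circles are the first library set, triangles the second, and lines the mean of 4. In Il20rb, Il17rc, Il18r1, Il6ra and Il18rap all cisplatin libraries lie above all controls, and in Il2rb, Il22ra1, Il21r and Il17rb below. This held for 23.7% and 22.5% of all genes tested. Within the cisplatin group Il6ra and Il17re are higher in circles and Il17ra in triangles.

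In the common gamma chain family 4 of the 6 genes tested were down-regulated and 1 was up-regulated, against 15.7% and 19.2% of all genes. With scaling by total library size, Il15 and Il2rb were the 2 that kept the call as lower. These are cytokines of lymphocytes that share the chain encoded by Il2rg. Il15 (ENSMUSG00000031712, chr8:82331632-82403222) encodes IL-15, which is made by tubule cells and sustains natural killer cells and memory T cells. It had 23.3, 24.3, 27.5 and 27.4 CPM in the controls and 9.92, 9.62, 7.54 and 6.82 CPM after cisplatin. Both groups were tight and well apart. The fitted log2 change was -1.59 (± 0.19 SE, adjusted p = 0.00012), which is 3.01-fold lower after cisplatin.

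Il7 (ENSMUSG00000040329, chr3:7569994-7613760), the gene of the lymphocyte survival factor IL-7, rose. It had 2.48, 2.39, 1.82 and 2.44 CPM in the controls and 11.01, 10.6, 7.83 and 10.5 CPM after cisplatin. No cisplatin library came near the controls. This corresponded to a log2 change of 2.13 (± 0.25 SE, adjusted p = 0.000115), a 4.37-fold rise. An antisense gene overlaps Il7. The receptor chain Il7r stood in an unused row.

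Il4 (ENSMUSG00000000869, chr11:53602982-53618669), a cytokine gene of type 2 immunity, had 2.92, 2.87, 3.03 and 1.34 CPM in the controls and 1.41, 1.37, 0.805 and 0.714 CPM after cisplatin. Control 5 lay just below cisplatin 1 and 3, so the groups overlapped. On the log2 scale the change was -1.21 (± 0.38 SE, adjusted p = 0.0237). The call was lost without control 1, 2 or 3 or cisplatin 4 or 6 (adjusted p = 0.0606 to 0.0666) and with no filter (adjusted p = 0.051). It was also lost under total library size (-0.64) and with the library set as a covariate (-0.995).

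The shared receptor chain for IL-2 and IL-15, Il2rb (ENSMUSG00000068227, chr15:78479256-78495271), had 7.70, 7.82, 6.14 and 5.58 CPM in the controls and 1.41, 2.58, 1.24 and 0.952 CPM after cisplatin. The groups were far apart. edgeR gave a log2 change of -2.12 (± 0.35 SE, adjusted p = 0.000831), which is 4.34-fold lower after cisplatin.

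Il21r (ENSMUSG00000030745, chr7:125603429-125633570), the receptor chain for IL-21, had 3.81, 2.55, 2.50 and 3.62 CPM in the controls and 1.82, 1.48, 0.878 and 1.51 CPM after cisplatin, with no overlap. It fell by 1.12 on the log2 scale (± 0.32 SE, adjusted p = 0.0159). Without control 1 the adjusted p was 0.0519, and without cisplatin 4 the log2 change was -0.95 (adjusted p = 0.0355), so that neither passed both thresholds. Within the first library set the log2 change was -0.89 (adjusted p = 0.0493), also short of the threshold of 1, and with scaling by total library size it was -0.54 (adjusted p = 0.186).

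Il2rg itself had 8.77, 7.58, 7.58 and 7.16 CPM in the controls and 6.004, 7.15, 2.05 and 7.53 CPM after cisplatin. Cisplatin 4 was the low one, cisplatin 6 lay within the range of the controls, and cisplatin 1 and 3 lay below it. Its log2 fold change came to -0.45 (± 0.37 SE, adjusted p = 0.337), and scaling by total library size turned it to 0.12. The gene Gm20489 overlaps Il2rg on the same strand. Il9 and Il21 had at most 1 count in any library.

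Lymphocyte markers are given beside this family, whose members many lymphocytes express. Of 12 T cell markers, 6 had usable rows and 5 were tested. Of the 5, 1 was down-regulated, against 15.7% of all genes tested. This was Cd8a, which went from 5.24 ± 1.54 to 0.464 ± 0.361 CPM (SD, n = 4 each), with a log2 change of -3.43 (± 0.49 SE, adjusted p = 0.000385). The summed level of the 6 was 14.6 to 21.5 CPM in the controls and 5.93 to 10.1 CPM after cisplatin. The natural killer cell list had 1 usable gene of 5, Gzma, with 0.157 to 2.66 CPM in the controls and 0 to 0.227 CPM after cisplatin. The B cell list had 2 usable genes of 5 and went the other way, with a summed level of 2.04 to 2.88 CPM in the controls and 4.46 to 11.5 CPM after cisplatin. Of these, Cd79a was up-regulated, with a log2 change of 2.40 (± 0.55 SE, adjusted p = 0.00567), and Cd79b had 0.13 (± 0.30 SE, adjusted p = 0.739). The part of these cells in the levels of Il2rb, Il21r and Il4 was not tested.

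Il34 had the highest level per length of any member in both groups. Il34 (ENSMUSG00000031750, chr8:110741829-110805924) encodes IL-34, a tubule-derived ligand of the macrophage receptor CSF1R. It had 36.5, 39.1, 48.6 and 57.3 CPM in control 1, 2, 3 and 5 and 106, 147, 136 and 110.1 CPM in cisplatin 1, 3, 4 and 6. All cisplatin libraries were far above all controls. The fitted log2 change was 1.46 (± 0.19 SE, adjusted p = 0.000215), a 2.75-fold rise. Antisense genes overlap Il34. Of 13 markers of macrophages and monocytes, 7 had usable rows and were tested. Of the 7, Cd14 and Itgam were up-regulated and Cx3cr1 and Ccr2 down-regulated, against 19.2% and 15.7% of all genes tested. The summed level of the 7 was 81.6 to 148 CPM in the controls and 129.5 to 186 CPM after cisplatin. Cd14 alone had 7.76 ± 1.12 CPM in the controls and 81.2 ± 18.2 CPM after cisplatin (SD, n = 4 each). Of the 7 markers, 3 had a fitted log2 change above 0, and the median was -0.34. The part of these cells in the level of Il34 was not tested.

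Il16, the gene of a T cell chemoattractant precursor, had 3.19, 3.43, 4.02 and 5.66 CPM in the controls and 3.32, 3.02, 4.25 and 2.62 CPM after cisplatin. The groups overlapped, and the log2 change was -0.30 (± 0.29 SE, adjusted p = 0.411), which turned to 0.27 with scaling by total library size. Stard5 and an antisense gene overlap Il16 on the opposite strand, and a pseudogene on the same strand. Of the IL-3, IL-5 and IL-13 group, Il3, Il13 and the decoy Il13ra2 had at most 1 count in any library. In all, 17 of the 45 genes failed the filter, 16 of them with under 10 counts in every library and 4 of these with 0 throughout.

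Levels were compared between genes per length, as mean CPM per kilobase of the gene length in the table. In the controls Il34 stood first at 23.2, followed by Il15 at 11.3, Il17rc at 9.74 and Il17ra at 7.12 CPM per kilobase, and Il1f6 and Il24 were last at 0. After cisplatin Il34 stood first at 63.8 and Il17rc second at 29.8 CPM per kilobase. Il1f6 had moved to place 5 of 28 with 8.76 and Il24 to place 6 with 4.65, next to Il15 at 3.75 and Il11 at 3.75 CPM per kilobase. The lowest levels after cisplatin were those of Il22ra1 at 0.297 and Il2rb at 0.361 CPM per kilobase.

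**Figure D4:**
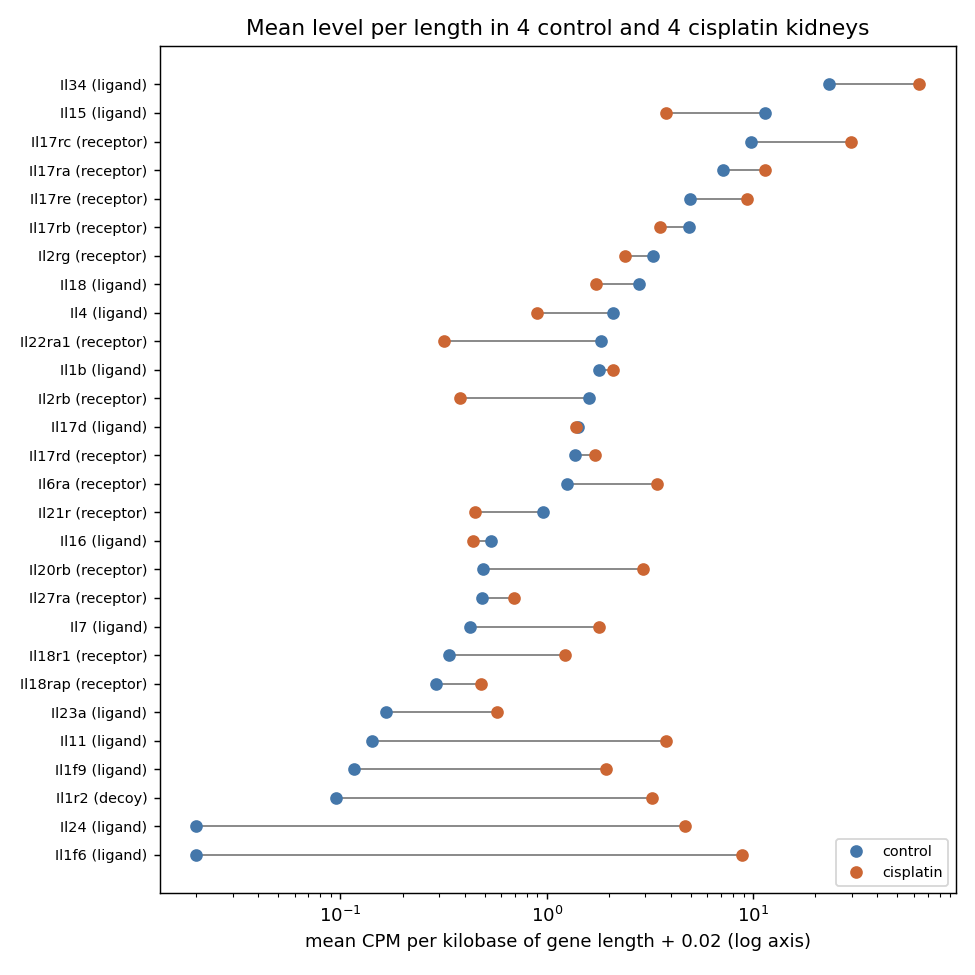
Mean CPM per kilobase of gene length + 0.02, on a log axis, of the 28 genes tested in 4 control (blue) and 4 cisplatin (orange) kidneys, ordered by the control level. Il34 is at the top in both groups, and Il1f6 and Il24 at the bottom in controls lie above most receptors after cisplatin.

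Genes that act with interleukins under other names were taken from 4 lists. In the list of IL-17 receptor signalling, 9 of 16 symbols had usable rows, all 9 had a fitted log2 change above 0, and 5 were up-regulated, with a median log2 change of 1.87. Over all genes tested, 53.2% had a fitted change above 0 and 19.2% were called higher, and the median was 0.08. The 5 were Arid5a (log2 fold change 3.11, standard error 0.18, adjusted p = 2.74e-06) and Zc3h12a (1.87, 0.22 and 0.000118), which encode RNA-binding proteins with opposite effects on cytokine mRNA, Cebpd (2.93, 0.28 and 3.68e-05) and Cebpb (2.45, 0.31 and 0.000186), which encode C/EBP transcription factors, and Tnfaip3 (2.25, 0.15 and 4.51e-06), the gene of the inhibitor A20. Each of them also responds to other inflammatory signals. Traf3ip2, the gene of the adaptor Act1, had a log2 change of 0.48 (± 0.20 SE, adjusted p = 0.0714).

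**Figure D5:**
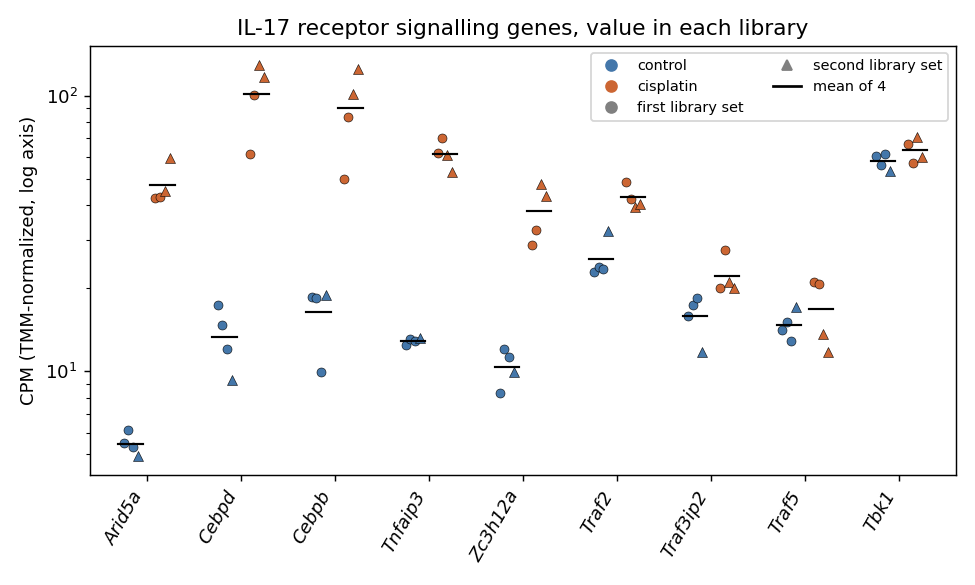
TMM-normalized CPM, on a log axis, of the 9 genes of the IL-17 receptor signalling list with usable rows, in each of 4 control (blue) and 4 cisplatin (orange) kidneys. Circles are the first library set, triangles the second, and lines the mean of 4. The 5 genes on the left and also Traf2 and Traf3ip2 show no overlap between the groups. Over all genes tested, 23.7% had all cisplatin libraries above all controls.

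In the list of Janus kinases, STAT factors and their inhibitors, 8 of 23 had usable rows. Of these 8, 1 was up-regulated and 0 down-regulated, against 19.2% and 15.7% of all genes. The gene called was Socs1, a feedback inhibitor of cytokine receptors, with 0.716 ± 0.310 CPM in the controls and 4.05 ± 2.19 CPM after cisplatin (SD, n = 4 each). Its log2 change was 2.47 (± 0.50 SE, adjusted p = 0.00285). Pias3 (0.51, adjusted p = 0.029) and Ptpn6 (-0.86, adjusted p = 0.00465) passed the adjusted threshold in edgeR and were short of a log2 change of 1. In the list of IL-1 and IL-18 signalling and processing, 9 of 22 had usable rows. Of these 9, 0 passed both thresholds in edgeR, against 34.9% of all genes tested in either direction. DESeq2 also called 0, and at an unadjusted p under 0.05 there were 2 higher, Tollip and Pycard, and 1 lower, Irak2. All 3 also passed the adjusted threshold (adjusted p = 0.0154, 0.0218 and 0.000817) and were short of a log2 change of 1 (0.63, 0.79 and -0.84). Caspase-1, which cleaves the precursors of IL-1β and IL-18, had 1.64 ± 0.408 CPM of Casp1 in the controls and 1.67 ± 0.826 CPM after cisplatin (SD, n = 4 each).

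Partners of interleukin receptors under other symbols are given singly. Osmr, the receptor chain for oncostatin M and IL-31, had a log2 change of 2.13 (± 0.43 SE, adjusted p = 0.00258). Ifnlr1, which pairs with the product of Il10rb to bind interferon lambda, had a log2 change of 1.51 (± 0.23 SE, adjusted p = 0.000519). Sigirr, an inhibitory member of the IL-1 receptor family, had 123 ± 64.1 CPM in the controls and 74.7 ± 23.6 CPM after cisplatin, with a log2 change of -0.72 (± 0.34 SE, adjusted p = 0.105).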

How the data were processed

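Kidney RNA of 4 control and 4 cisplatin-treated mice was sequenced. The submitters' processing notes name fastp, HISAT2 and GRCm38, and the authors deposited raw counts per gene. The counting tool, annotation release and strand setting are not given in the sources used here. Rows with 8 counts were used (35880 of 53715). The other 17835 hold 10 values, and the 2 extra values have no library name and were left out.

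Counts were filtered with edgeR's default, normalized by TMM and tested with edgeR 4.0.16 (glmQLFit, R 4.3.3) across all 9141 genes with Benjamini-Hochberg adjustment. DESeq2, the tool of the study, was run here in version 1.42.0 as an alternative. Standard errors were the absolute log2 fold change divided by the square root of F. A fold against 0 counts in every control is a bound against 3 counts, at the highest CPM that 3 counts had in a control, 0.266. Alternatives were other scalings and filters, the replicate block, the library set as a covariate or its first part alone, and each library left out. Leaving out cisplatin 1 and 3 was chosen after seeing the data. The library sets were also read from these data, on the second principal component. The code was tested on simulated data.

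The members, gene families and lists were chosen with earlier results of these data known. Every tested gene is named; genes under other symbols come from the lists, and a result of the list of receptor partners is not reported here. Of the 45 genes, 43 had the same coordinates in GENCODE M21. Libraries of a group differed by a chi-square per gene of at least 15.3, where sampling noise gives about 1.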

Additional observations from a re-analysis of the deposited data

Results flagged for a closer look

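A library was singled out when its gap to the nearest other library of its group of 4 was, as a share of the group's range, above Dixon's 95% critical value. This was so in 5 of 56 groups examined, where chance gives about 1 in 20. Of the 5, 3 concern control 5, the control of the second library set. It had 38.4 CPM of Il17rc against 21.8 to 21.9 CPM in the other controls. It had 2.20 CPM of Il18 against 3.03 to 3.11 CPM, and 1.34 CPM of Il4 against 2.87 to 3.03 CPM. For Il7, control 3 was low at 1.82 CPM against 2.39 to 2.48 CPM, and cisplatin 4 was low at 7.83 CPM against 10.5 to 11.01 CPM.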

How the results depend on the processing

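Of 468 recomputed log2 fold changes of single genes, 432 kept their direction and their side of the thresholds. The numbers of genes called and the medians are not among the 468. With TMM 12 genes were up-regulated and 5 down-regulated. DESeq2, DESeq2's size factors, the first library set alone and the fit without cisplatin 1 and 3 each gave the same numbers, 12 and 5, with 11 to 12 and 4 to 5 of them shared. No filter and the library set as a covariate each gave 12 and 4, without Il4. Scaling by total library size moved the median log2 fold change of all genes from 0.08 to 0.64 and gave 3174 up-regulated and 803 down-regulated genes, 79.8% up-regulated against 55.0% with TMM. Among the 28 it gave 16 and 3, with medians of 2.03 for ligands and 1.17 for receptors. It turned Il17rb to 0.11, Il2rg to 0.12, Il16 to 0.27 and Il17d to 0.51. With at least 10 counts in every library, 6 and 3 genes were called, 1101 of all genes were up-regulated, and the ligand median turned to -0.015, since this filter leaves out Il1f6, Il24, Il11, Il1f9, Il1r2, Il23a, Il22ra1 and Il4. Without cisplatin 1 and 3 the receptor median was 0.15 and Il17d was 0.25, and within the first set Il1b was -0.013.

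With each library left out in turn, between 12 and 13 genes were up-regulated and between 3 and 5 down-regulated, and Il17d ranged from -0.29 to 0.14, above 0 without control 5, cisplatin 1 (0.09) or cisplatin 3 (0.02). The 13 came without cisplatin 4 or 6, when Il17re was called as well. The 3 came without control 1 or without cisplatin 4, when both Il4 and Il21r lost their call. Replicate numbers 1 and 3 occur in both groups, with correlations of deviations from the group mean of 0.25 and 0.28, and the labels do not say that a number marks a shared animal or batch. With the replicate block, 12 were up-regulated and 5 down-regulated, with medians of 1.34 for ligands and 0.51 for receptors. Il23a and Il21r lost their call and Il17re and Il18 gained one. A number that occurs in 1 group alone says nothing about the change in that fit. The fit therefore rests on control 1 and 3 and on cisplatin 1 and 3, the cisplatin libraries of the first set. Depth limits the 16 genes with under 10 counts in every library.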
